A study of Mus musculus with 4 samples.

Results

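Imprinted genes with known roles in growth were described in mammary tumors of St6gal1-null mice and of their wild-type littermates. The 10 genes were Ndn, Igf2, H19, Dlk1, Meg3, Peg3, Mest, Plagl1, Cdkn1c and Grb10, and their members were taken as every probe set annotated with exactly 1 of these symbols. That gave 36 of 45037 probe sets, which covered 9 of the 10 genes. The H19 symbol stood only on a probe set shared with another gene, so no value is given for H19. The list was chosen by the measured null over wild type ratios, in which Ndn was among the strongest rises, so the null over wild type values of all members are given as a description, with no test.

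The study hybridised 4 one-colour Affymetrix mouse expression arrays. Of these, 2 held St6gal1-null tumors and 2 held wild-type tumors. Each array carried RNA pooled from 3 tumors of 3 different female C57BL/6 animals, aged 110 days, at 14 days after tumor onset. All animals, wild type included, carried the polyoma virus middle T oncogene (PyV-mT), a transgene that drives mammary tumors with a promoter not given in the sources used here. St6gal1 encodes a sialyltransferase, the one that caps N-glycans with alpha2-6-linked sialic acid, and the labels name no cell type to which its loss is limited. The null and wild-type arrays were compared as 2 sets, each with 1 pool of either genotype.

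Imprinted genes are transcribed mainly from the maternal or mainly from the paternal copy, and many lie in clusters that share a control region. Paternally expressed members such as Igf2, Dlk1, Mest and Peg3 are mostly known to favour growth of the fetus and placenta, whereas the maternally expressed Cdkn1c and Grb10 restrain it. Most of the network is known to fall silent after birth and to stay on in mesenchymal cells such as preadipocytes, muscle precursors and fibroblasts. In the RefSeq annotation of GRCm38.p6, used here for gene order, Ndn neighbours Magel2 with 0 annotated genes between them. Dlk1 and Meg3 share a cluster with 0 protein-coding genes between them, as do Igf2 and H19, and Cdkn1c lies next to Kcnq1.

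The RefSeq promoter table of GRCm38.p6 held 15 start sites for 8 of the 10 members, each with 250 bases before and 50 after the start. Sequences are shown for a member that read higher in the null pools on its bright probe sets (Ndn), one whose probe sets went different ways (Meg3, first start site) and one that read lower on its bright probe set (Plagl1). Capitals mark the GC box GGGCGG and the TATA box TATAAA on either strand, where adjoining capitals can be overlapping matches.
Ndn, chr7:62348027-62348326, plus strand: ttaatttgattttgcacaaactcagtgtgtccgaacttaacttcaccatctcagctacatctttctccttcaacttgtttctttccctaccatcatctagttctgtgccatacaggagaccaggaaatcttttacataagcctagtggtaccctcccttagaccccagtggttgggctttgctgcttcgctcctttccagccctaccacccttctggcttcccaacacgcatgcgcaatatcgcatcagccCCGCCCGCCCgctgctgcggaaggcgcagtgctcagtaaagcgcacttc
Meg3, chr12:109540746-109541045, plus strand: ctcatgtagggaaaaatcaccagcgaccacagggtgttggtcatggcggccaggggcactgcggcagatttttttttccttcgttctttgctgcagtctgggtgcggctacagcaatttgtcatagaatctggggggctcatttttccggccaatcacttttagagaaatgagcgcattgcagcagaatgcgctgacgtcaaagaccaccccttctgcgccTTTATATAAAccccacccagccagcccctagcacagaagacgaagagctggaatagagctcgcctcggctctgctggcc
Plagl1, chr10:13090582-13090881, plus strand: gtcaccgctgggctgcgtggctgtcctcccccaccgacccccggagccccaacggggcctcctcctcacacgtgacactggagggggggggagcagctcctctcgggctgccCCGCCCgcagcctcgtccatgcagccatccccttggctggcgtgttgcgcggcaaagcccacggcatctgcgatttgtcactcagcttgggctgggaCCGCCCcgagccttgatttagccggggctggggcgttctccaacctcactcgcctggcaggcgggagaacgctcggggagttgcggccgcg
The Ndn window held 2 GC boxes that overlap, just after the annotated start, and the Plagl1 window held 2 that lie apart. The Meg3 window held no GC box and 2 overlapping TATA matches, 1 on each strand. Over all 15 member windows, 8 held a GC box (53.3%) and 1 a TATA box (6.67%), against 35.7% and 13.6% of all 32851 windows in the table. The Mest windows of start sites 2 and 3 overlap and hold the same GC box, and several members have more than 1 window. The windows are therefore not independent. CpG dinucleotides numbered 11 in the Ndn, 13 in the Meg3 and 26 in the Plagl1 window, and the median was 13 over the members and 7 over the table. A match is a description of the letters in the window and not of bound factors.

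Values are MAS5 probe set intensities on a linear scale. Ratios are on the scale log2(intensity + 44), which understates the change of dim probe sets. Probe sets for Y-linked genes, which these female animals lack, read up to 565, and signals at or below this unspecific level were not told from background. Of the 36 member probe sets, 16 and 18 read above that level on the null arrays of sets 1 and 2, and 12 and 13 on the wild-type arrays. A filter on the mean intensity, at 591, left 15 of the 36 for the fit. The nearest members inside it were 2 Meg3 probe sets with means of 704 and 946, and the nearest outside were an Igf2 and a Meg3 probe set with means of 547 and 528. Array medians lay between 588 and 619. Gapdh had a 3'/5' signal ratio, a measure of RNA degradation, of 2.13 (null) and 1.57 (wild type) in set 2, against 0.873 (null) and 0.869 (wild type) in set 1. The tumors showed bright epithelial transcripts, with Krt8, a luminal keratin, at 116412 and 150715 in the null and 101213 and 114827 in the wild-type pools. The brighter St6gal1 probe set read 2337 and 3642 in the null and 2330 and 2796 in the wild-type pools, so it was not lower in the null pools. Which exons the null allele has lost is not given here, so the probe set does not check the labels, on which all directions rest.

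Ndn encodes necdin, a paternally expressed protein of the MAGE family that binds E2F1 and p53 and restrains cell division. On its brightest probe set Ndn read 2004 and 2694 in the null pools of sets 1 and 2, against 808 and 758 in the wild-type pools. Both null arrays lay above both wild-type arrays, with a log2 ratio of 1.52 ± 0.23 or 2.87-fold (here and below ± is limma's SE with n = 2 pools per genotype). The next probe set read 2035 and 1923 in the null and 724 and 857 in the wild-type pools, a log2 ratio of 1.28 ± 0.23. On 2 further bright probe sets the wild-type arrays lay within the unspecific level, so the fold is a bound taken against that level. One read 1803 and 2290 in the null and 378 and 427 in the wild-type pools, at least 3.60-fold higher. The other read 1578 and 2089 in the null and 482 and 372 in the wild-type pools, at least 3.22-fold higher. The 4 probe sets thus gave the same direction in both sets with ratios of at least 2-fold in each.

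The fifth Ndn probe set that passed the filter did not give the same size in both sets. It read 2562 and 1142 in the null and 96.7 and 716 in the wild-type pools, so its log2 ratio was 4.21 in set 1 and 0.64 in set 2. Its mean log2 ratio of 2.43 ± 0.58 therefore rests on the dim wild-type array of set 1. The other 3 Ndn probe sets were too dim for the fit. Only 1 of them rose above the unspecific level on any array, at 120 and 766 in the null and 51.2 and 199 in the wild-type pools. All 5 fitted Ndn probe sets had both null arrays above both wild-type arrays, an order that 15.1% of all 22519 probe sets tested had, while 16.9% had the reverse. In pooled tumor tissue, more cells of a type and more RNA per cell cannot be told apart. Several Ndn probe sets carry the suffix x, which the array's maker uses for probes that can also match other transcripts.

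**Figure D1:**
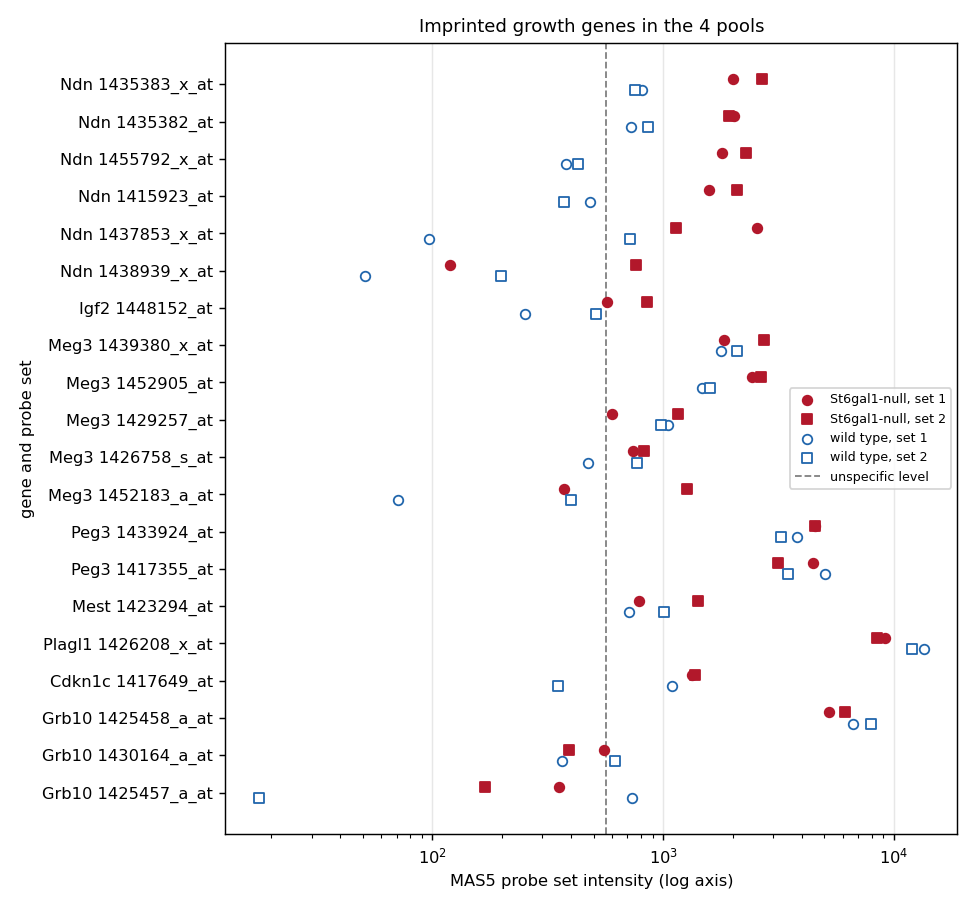
Intensities (log axis) of every member probe set that read above the unspecific level (dashed line, 565) on at least 1 array. Red filled marks are the St6gal1-null pools and blue open marks the wild-type pools, circles for set 1 and squares for set 2. The first 4 Ndn probe sets show both null pools well to the right of both wild-type pools, while Plagl1 and the brightest Grb10 probe set show the reverse order.

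Magel2, the neighbour of Ndn and also of the MAGE family, read 46.6 and 789 in the null and 87.7 and 246 in the wild-type pools, above the unspecific level on 1 null array only. Mkrn3, a ring finger gene beyond Magel2, read 189 and 306 in the null and 81.2 and 87.3 in the wild-type pools, all within that level. Snrpn read 43.8 and 329 in the null and 641 and 148 in the wild-type pools, above that level on 1 wild-type array only. Snurf had no singly named probe set. The rest of the Ndn cluster was thus mostly too dim to be compared or had no value, apart from Ube3a and Atp10a, given further on.

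Igf2 encodes the fetal insulin-like growth factor and was dim in these tumors. Its brighter probe set read 573 and 849 in the null pools, just above the unspecific level in set 1, against 253 and 513 in the wild-type pools, both within it. Both null arrays lay above both wild-type arrays, at least 1.24-fold. The second Igf2 probe set read 43.0 and 47.9 in the null and 128 and 189 in the wild-type pools, in the opposite order but entirely within the unspecific level. Neither passed the filter, so Igf2 was not fitted.

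Cdkn1c encodes p57, an inhibitor of cyclin-dependent kinases that is expressed from the maternal copy. Its only probe set read 1331 and 1381 in the null and 1091 and 351 in the wild-type pools. The null arrays were close to each other and the wild-type arrays were not, so the log2 ratio was 0.28 in set 1 and 1.85 in set 2. The mean of 1.06 ± 0.35 (SE, n = 2 pools per genotype) rests on the wild-type pool of set 2, which read within the unspecific level.

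Dlk1 encodes a membrane protein with EGF repeats, paternally expressed, that holds back adipocyte differentiation. It read within the unspecific level on all 4 arrays. Its brighter probe set read 393 and 529 in the null and 404 and 538 in the wild-type pools, with log2 ratios of -0.04 in set 1 and -0.02 in set 2.

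Meg3, a maternally expressed long noncoding RNA from the cluster of Dlk1, was measured by 11 probe sets that differed in size and direction. The brightest read 1831 and 2741 in the null and 1783 and 2092 in the wild-type pools, and the groups overlapped (log2 ratio 0.21 ± 0.18). The next read 2436 and 2662 in the null and 1472 and 1595 in the wild-type pools. That probe set had both null arrays above both wild-type arrays, with log2 ratios of 0.71 in set 1 and 0.72 in set 2. The remaining fitted Meg3 probe sets had log2 ratios of -0.27 ± 0.31 and 0.34 ± 0.34. The first of these read 599 and 1155 in the null and 1050 and 979 in the wild-type pools, lower in set 1 and higher in set 2.

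Of the 7 Meg3 probe sets below the filter, 6 read within the unspecific level on all arrays. The other read 373 and 1270 in the null and 71.3 and 399 in the wild-type pools, above that level on 1 null array. Over all 11, both null arrays lay above both wild-type arrays for 4 and below them for 0, and the other 7 overlapped. Of those 4, only the second brightest probe set read above the unspecific level. The rest of the 4 read at most 484 on any array, so their order was not told from background. For comparison, 15.8% of all 45037 probe sets had both null arrays above and 16.6% had both below.

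**Figure D2:**
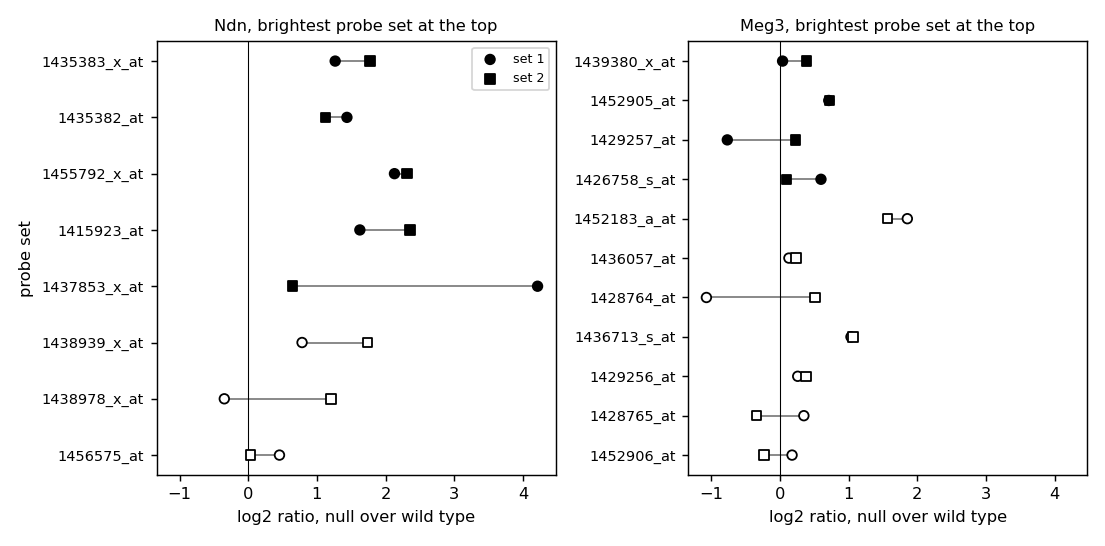
Log2 ratio of the St6gal1-null over the wild-type pool in set 1 (circles) and set 2 (squares) for the 8 Ndn and the 11 Meg3 probe sets, with filled marks for those that passed the filter. A line joins the values of a probe set. All 5 fitted Ndn probe sets lie above 0 in both sets, and the Meg3 probe sets scatter on both sides of 0.

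Rian, a noncoding RNA downstream of Meg3 in the same cluster and host of small nucleolar RNAs, was not a member. Its brightest probe set read 720 and 813 in the null and 94.8 and 49.6 in the wild-type pools. Both wild-type arrays lay within the unspecific level and both null arrays just above it, at least 1.36-fold higher. Its mean missed the filter, so Rian was not fitted. The 3 other Rian probe sets read within the unspecific level on all 4 arrays, with log2 ratios between -0.41 and 0.90. Mirg, the next noncoding RNA of the cluster, read 249 and 722 in the null and 545 and 655 in the wild-type pools, and the groups overlapped.

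Peg3, a paternally expressed zinc finger protein, was well above the unspecific level on 2 probe sets that differed in direction. One read 4566 and 4554 in the null and 3798 and 3235 in the wild-type pools (log2 ratio 0.38 ± 0.13). The other read 4483 and 3134 in the null and 5015 and 3460 in the wild-type pools (log2 ratio -0.15 ± 0.12), and the groups overlapped. The other 3 Peg3 probe sets read within the unspecific level on all 4 arrays.

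Mest encodes a membrane enzyme of the hydrolase fold, paternally expressed and known from growing fat tissue. Its probe set read 790 and 1411 in the null and 711 and 1013 in the wild-type pools. The groups overlapped, and the log2 ratio was 0.30 ± 0.28.

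Plagl1, a paternally expressed zinc finger transcription factor that is known to activate other imprinted genes, read lower in the null pools on its bright probe set. That probe set read 9178 and 8464 in the null and 13524 and 11943 in the wild-type pools. Both null arrays lay below both wild-type arrays, with a mean log2 ratio of -0.53 ± 0.09, or 1.44-fold lower. The ratios of the sets were close, at -0.56 in set 1 and -0.49 in set 2. The other 2 Plagl1 probe sets read within the unspecific level on all arrays. The direction thus rests on the bright probe set alone, which carries the suffix x and so can also match other transcripts.

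Grb10 encodes an adaptor that damps signalling by the insulin and IGF1 receptors. On its bright probe set it read 5216 and 6109 in the null and 6670 and 7929 in the wild-type pools. Both null arrays lay below both wild-type arrays, at -0.36 ± 0.10 on the log2 scale, or 1.29-fold lower. Its 2 dim probe sets crossed the unspecific level on 1 array each, and both changed direction between the sets.

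Over the 15 fitted member probe sets, 11 were higher in the null pool in both sets, 3 were lower in both and 1 went opposite ways. The median log2 ratio was 0.38, against -0.03 over all 22519 probe sets tested. Without Ndn the median over the other 10 was 0.26, at 0.09 in set 1 and 0.31 in set 2. The fit would place 6 of the 15 past its threshold as higher (5 of Ndn and 1 of Meg3) and 2 as lower (Plagl1 and Grb10). Over all probe sets tested, 7.3% were called, with 4.05% higher and 3.25% lower. Since the rise of Ndn chose the list, nothing is read from these counts. At least 2-fold higher in both sets were 7 of the 36, 4 of them of Ndn and 2 of Meg3, against 2.04% of all probe sets. Of the 15 fitted, 4 were, against 0.884% of all probe sets tested. The other of the 7, a Peg3 probe set, read at most 160 on any array. Both of the Meg3 probe sets missed the filter. Of these, 1 read within the unspecific level on all arrays and 1 rose above it on 1 null array only.

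**Figure D3:**
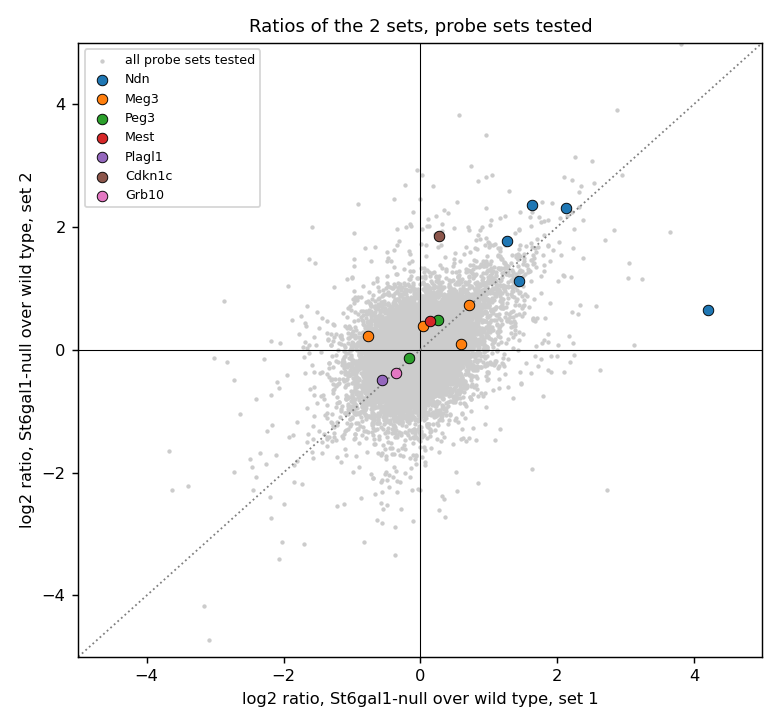
Log2 ratio of the St6gal1-null over the wild-type pool in set 1 (x axis) against set 2 (y axis) for all 22519 probe sets tested (grey) and the 15 fitted member probe sets (colours). The dotted line marks equal ratios. Of the 5 Ndn probe sets 4 lie near that line at the upper right, Plagl1 and Grb10 lie on it below 0, and Cdkn1c lies far above it.

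The second and the first set of pools were compared as a measure that the choice of genes did not use. Only 1 of the 15 fitted member probe sets differed between the sets (limma, adjusted p under the threshold of 0.05 over all probe sets tested), against 23.6% of all probe sets tested. It was a Peg3 probe set, which read 3134 (null) and 3460 (wild type) in set 2, against 4483 (null) and 5015 (wild type) in set 1. It fell by 0.52 ± 0.12 on the log2 scale in set 2 (limma adjusted p = 0.00816), and was lower in set 2 in both genotypes. The brighter Peg3 probe set had -0.12 ± 0.13 (adjusted p = 0.556), so the probe sets of this gene did not share the call. The 2 Ndn probe sets above the unspecific level on all arrays had set differences of 0.17 ± 0.23 and 0.08 ± 0.23 (limma adjusted p = 0.648 and 0.853). For the other 3 fitted Ndn probe sets the comparison includes wild-type values within that level, so no set difference is given. A p that misses the threshold does not show equal levels. Set 2 also had the higher Gapdh 3'/5' ratios, whose part in the Peg3 value was not tested. Without limma's intensity trend 0 member probe sets were called between the sets.

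Imprinted genes outside the list were tested, since the choice did not use them. Of 60 such genes 50 had a singly named probe set, and 31 passed the filter by their brightest probe set. Of these, 5 rose and 1 fell in the null pools (limma adjusted p under 0.05 over all probe sets tested), while 25 were not called. The 1 that fell, Kcnq1, entered the fit through the wild-type arrays alone, so its call is not read as a result. Over all 11514 genes tested the same way, 8.77% were called, with 5.18% that rose and 3.59% that fell. The median log2 ratio was 0.08 over the 31 and -0.01 over all genes. The list was drawn up with earlier results of these data known, so its counts are a description.

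Sgce encodes epsilon-sarcoglycan, a paternally expressed membrane protein of muscle and other mesenchymal cells. It read 1797 and 2171 in the null and 624 and 729 in the wild-type pools. It rose 2.81-fold, a log2 ratio of 1.49 ± 0.24 (limma adjusted p = 0.00136), with 1.46 in set 1 and 1.52 in set 2. A second Sgce probe set read within the unspecific level on all arrays. Peg10, which shares its control region with Sgce, read at most 112 on any array.

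Tfpi2, an extracellular protease inhibitor in the same cluster, read 1731 and 2282 in the null and 912 and 837 in the wild-type pools. It rose 2.21-fold (log2 1.15 ± 0.23, limma adjusted p = 0.00736). Dcn encodes decorin, a small proteoglycan of collagen that is abundant in fibroblasts and imprinted in the mouse placenta. It read 52635 and 46426 in the null and 40999 and 34720 in the wild-type pools and rose 1.31-fold (limma adjusted p = 0.00981).

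Atp10a, a lipid flippase, and Ube3a, a ubiquitin ligase that is imprinted in neurons, lie on the far side of Snrpn from Ndn. Atp10a read 1492 and 2085 in the null and 786 and 976 in the wild-type pools and rose 1.97-fold (log2 0.97 ± 0.23, limma adjusted p = 0.0196). Its second tested probe set had a log2 ratio of 1.19 ± 0.37 that missed the threshold (limma adjusted p = 0.0697). Ube3a rose 1.27-fold on its brightest probe set, at 40714 and 32744 in the null and 31140 and 26681 in the wild-type pools (limma adjusted p = 0.0219). Its 2 other tested probe sets had log2 ratios of 0.07 and 0.17 and were not called.

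Kcnq1, a potassium channel gene next to Cdkn1c, was the only listed gene that fell by its brightest probe set. It read 137 and 235 in the null, within the unspecific level, and 949 and 1313 in the wild-type pools. It was at least 1.98-fold lower, and it passed the filter through the wild-type arrays alone. Its call (limma adjusted p = 0.00274) used the null values within the unspecific level and does not test that bound. Nothing is read from the call. With the median over the tested probe sets of a gene in place of the brightest, limma called 7 of the 31 genes, with Gnas also lower (log2 ratio -0.37, adjusted p = 0.0146), Nnat also higher (adjusted p = 0.0313) and Ube3a no longer called.

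Among imprinted genes that were not called, Nnat, which encodes neuronatin, had a log2 ratio of 1.08 ± 0.32 (limma adjusted p = 0.0575). It read 1091 and 1251 in the null and 376 and 741 in the wild-type pools, the first of which lay within the unspecific level, and was named after its values were seen. Slc38a4, an amino acid transporter, read within the unspecific level on all 4 arrays, and so did Asb4, whose 2 probe sets had mean log2 ratios of 1.40 and -0.68. Igf2r, the maternally expressed receptor that clears IGF2, read 10640 and 6234 in the null and 9793 and 8231 in the wild-type pools (log2 ratio -0.14, limma adjusted p = 0.565). Impact and Cd81 had mean log2 ratios of 0.05 and -0.04. Gnas had -0.06 on its brightest probe set, and -0.68 ± 0.33 (limma adjusted p = 0.265) on a second one, where both null arrays lay below both wild-type arrays.

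**Figure D4:**
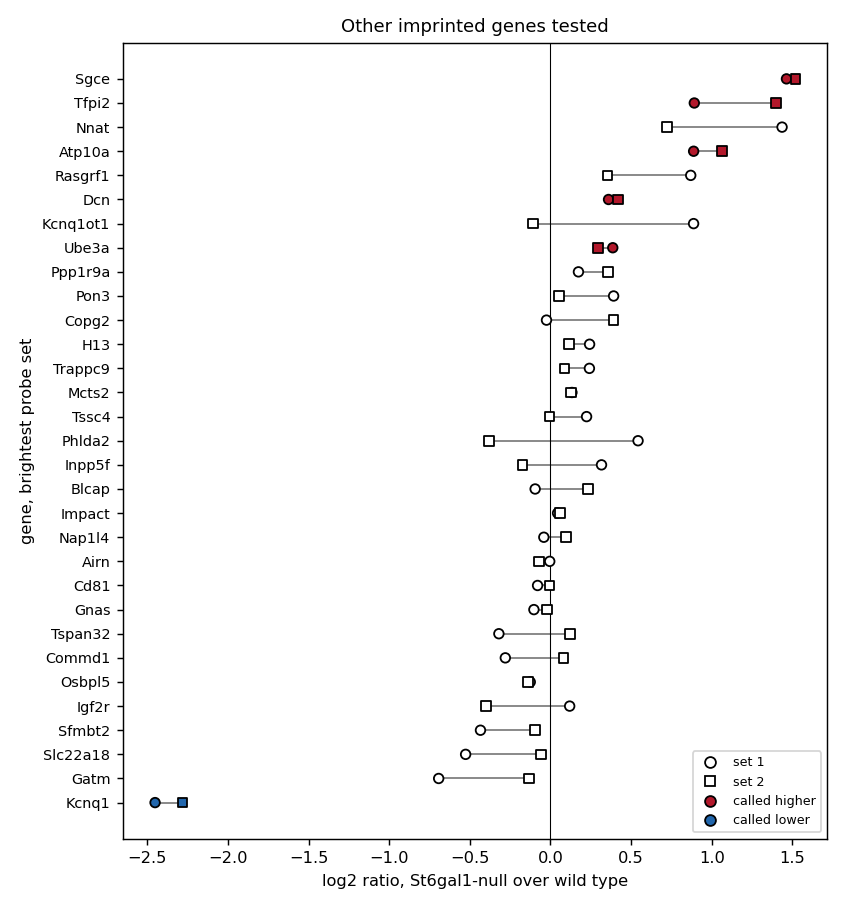
Log2 ratio of the St6gal1-null over the wild-type pool in set 1 (circles) and set 2 (squares) for the 31 tested imprinted genes outside the list, each by its brightest probe set, in order of the mean. Red marks the 5 genes called higher and blue the 1 called lower by limma. Sgce, Tfpi2 and Atp10a lie near or above 0.89 in both sets, and the place of Kcnq1 rests on null signals within the unspecific level, so only its bound of 1.98-fold lower holds.

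The partners of the members were taken as the IGF axis and the cell cycle genes on which necdin and p57 act. Other textbook partners, among them Siah1a, Traf2 and Nedd4, were included. Of 25 tested, 6 rose and 1 fell (limma adjusted p under 0.05 over all probe sets tested), beside 5.18% that rose and 3.59% that fell over all genes, with a median log2 ratio of 0.03. The number that fell was 3 under quantile and 2 under cyclic loess normalization. Igf1, the postnatal growth factor, read 6326 and 5977 in the null and 2708 and 3729 in the wild-type pools and rose 1.92-fold (log2 0.94 ± 0.14, limma adjusted p = 6.05e-04). Of its 3 further tested probe sets, 1 was called higher (log2 1.19) and the others, at 0.52 and 0.61, were not. Igfbp6, a binding protein that prefers IGF2, read 2982 and 3825 in the null and 702 and 1101 in the wild-type pools. It rose 3.70-fold (log2 1.89 ± 0.19, limma adjusted p = 2.33e-05). Igfbp4 rose 1.30-fold on its brightest probe set (limma adjusted p = 0.0116). Its 5 further probe sets in the fit had log2 ratios between -0.73 and 0.56, of which only the one of 0.56 was called.

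Igfbp3, the main carrier of IGFs in serum, was the partner that fell by its brightest probe set. It read 12166 and 9502 in the null and 19121 and 17171 in the wild-type pools, and fell by 0.75 ± 0.09 on the log2 scale (limma adjusted p = 1.09e-04). Its second tested probe set fell by 0.53 (limma adjusted p = 0.00568). Igfbp5, which encodes another IGF-binding protein, was not called on its brightest probe set (log2 ratio -0.23, limma adjusted p = 0.206), while a second one fell by 0.59 on the log2 scale (limma adjusted p = 4.31e-04). The probe sets of Nedd4 disagreed more. The 2 brighter ones had log2 ratios of -0.28 and -0.21 and were not called (limma adjusted p = 0.0622 and 0.169). A dimmer one rose by 1.06 (limma adjusted p = 1.20e-05), although its groups overlapped. The receptors that Grb10 damps were chosen for their role after their values were seen, and neither was called. Insr had a log2 ratio of -0.14 ± 0.13 and Igf1r one of 0.26 ± 0.17.

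Of the cell cycle partners, Ccnd1 and Ccna2, which encode cyclins D1 and A2, rose 1.46-fold and 1.47-fold on their brightest probe sets (limma adjusted p = 7.75e-04 and 0.00605). A second Ccna2 probe set had a log2 ratio of 0.28 and was not called (limma adjusted p = 0.217), and of 2 further Ccnd1 probe sets 1 was called (0.36) and 1 was not (0.25, limma adjusted p = 0.0899). Pcna, the sliding clamp of DNA replication, rose 1.28-fold (limma adjusted p = 0.0148). Ccne1, which encodes cyclin E1, had a log2 ratio of 0.67 ± 0.22 (limma adjusted p = 0.0838) and Ccne2 one of 0.51 ± 0.26 (limma adjusted p = 0.302). A second tested Ccne1 probe set had a log2 ratio of 0.18, at -0.29 in set 1 and 0.64 in set 2. E2f1, the transcription factor that necdin binds, had one of 0.24 ± 0.32 (limma adjusted p = 0.741) on its brightest probe set. A second E2f1 probe set of similar brightness had 1.34 ± 0.39 (limma adjusted p = 0.0544), with 971 and 1081 in the null and 585 and 239 in the wild-type pools. None of these 3 genes was called.

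Of 15 tested genes that keep or read imprints, 1 rose and 0 fell, beside 8.77% called over all genes, with a median log2 ratio of 0.07. Dnmt1, the maintenance DNA methyltransferase, rose 1.33-fold on its brightest probe set, at 8156 and 15528 in the null and 6784 and 10604 in the wild-type pools (limma adjusted p = 0.0232). The groups overlapped, and its 2 other tested probe sets had log2 ratios of -0.04 and 0.18. Hells, a chromatin remodeller, had a log2 ratio of 0.54 ± 0.16 (limma adjusted p = 0.0643) and Dnmt3a one of -0.51 ± 0.17 (limma adjusted p = 0.0838). A second tested Hells probe set had a log2 ratio of 0.13, at 0.43 in set 1 and -0.17 in set 2. Further tested Dnmt3a probe sets had log2 ratios of -0.39 and -0.003. Uhrf1, which guides Dnmt1 to replicated DNA, had one of 0.47 ± 0.19 (limma adjusted p = 0.177). Ctcf and Trim28 had mean log2 ratios of -0.14 and -0.03 and were not called.

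The profile of Ndn over the 4 arrays was most like those of Retn, Tnc, Col1a2, Cpm and Pnpla3, by the distance between log2 values centred on each probe set's own mean. The distances ran from 0.13 for Retn to 0.19 for Pnpla3, on the brightest Ndn probe set. Retn is an adipocyte hormone gene, and Tnc and Col1a2 encode tenascin C and a type I collagen chain. The other 4 fitted probe sets of Ndn itself lay farther off, at 0.48 to 2.28. With 4 arrays this likeness is a description, and these profiles share the null over wild type difference by which Ndn was chosen.

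Markers of other cell types were counted in the same fit, beside 5.18% that rose and 3.59% that fell over all genes tested. These lists too were drawn up with earlier results of these data known, so their counts are a description. Of 19 fibroblast markers 18 rose and 0 fell by limma, with a median log2 ratio of 1.26, and their summed intensity was 575086 and 711470 in the null and 306174 and 356421 in the wild-type pools. Of 5 adipocyte markers 4 rose and 0 fell (median 1.41), and their list summed to 61475 and 54671 in the null and 25099 and 22536 in the wild-type pools. Skeletal muscle markers had 3 of 10 higher, 0 lower and 7 not called (median 0.89), with sums of 17133 and 14856 in the null and 11069 and 9874 in the wild-type pools. In endothelial and pericyte markers 4 of 12 rose, 1 fell (Notch3, a pericyte marker) and 7 were not called (median 0.47), with sums of 38718 and 42546 in the null and 29518 and 34196 in the wild-type pools.

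No marker of these lists read 0, and the number within the unspecific level on all 4 arrays was 0 of 19 for fibroblasts, 1 of 7 for adipocytes, 1 of 13 for skeletal muscle and 0 of 14 for endothelium and pericytes. Epithelial and other markers moved less or the other way. Luminal markers had 2 of 12 higher and 0 lower (median 0.07), with sums of 552528 and 540785 in the null and 535220 and 474980 in the wild-type pools. Basal markers had 0 of 10 higher and 5 lower (median -0.48), with sums of 114038 and 134482 in the null and 148509 and 165264 in the wild-type pools. Macrophage markers had 3 of 9 higher and 0 lower (median 0.15), with sums of 164159 and 183961 in the null and 144565 and 170374 in the wild-type pools. Of 3 tested nerve and Schwann markers 0 were called, and the list summed to 33343 and 45682 in the null and 41478 and 51999 in the wild-type pools. Most of these sums came from Sox10 alone, at 29655 and 41315 in the null and 38184 and 48115 in the wild-type pools. Of the 7 genes of this list, 4 read within the unspecific level on all 4 arrays.

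The 2 Ndn probe sets above the unspecific level on all 4 arrays had a median log2 ratio of 1.35 in set 1 and 1.45 in set 2. The medians of the fibroblast markers were 1.19 and 1.33, and those of the adipocyte markers 1.39 and 1.55. The median of these 2 Ndn probe sets thus lay between the medians of the 2 lists in both sets. Neither probe set did so by itself in both sets. The brighter had a log2 ratio of 1.27 in set 1 and 1.77 in set 2, and the other 1.44 and 1.13. Over all 5 fitted Ndn probe sets the medians were higher than those of both lists, at 1.62 in set 1 and 1.77 in set 2. Some of those 5 had wild-type signals within the unspecific level. The place of Ndn beside the lists therefore depends on which of its probe sets are used. The part of the cell makeup in the values of Ndn, Meg3, Sgce, Dcn and Igf1 was not tested.

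**Figure D5:**
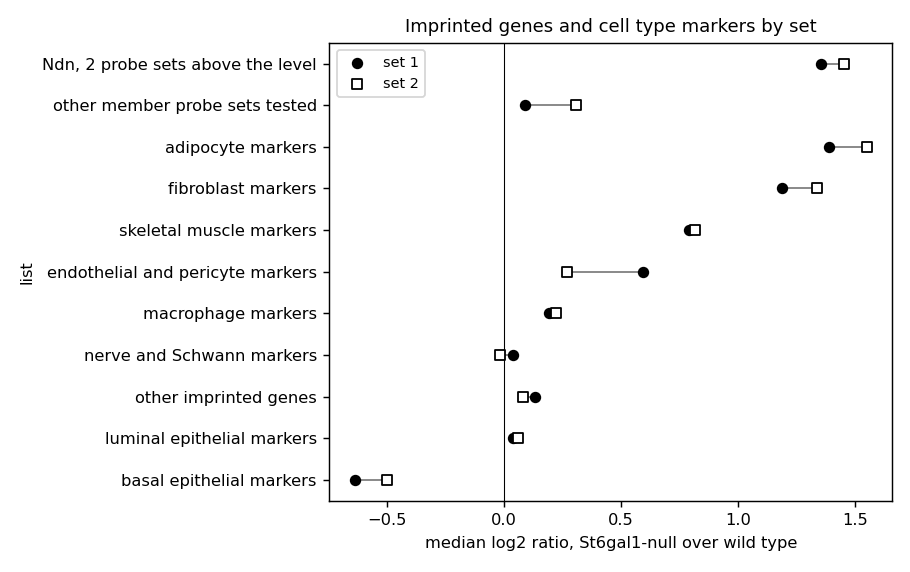
Median log2 ratio of the St6gal1-null over the wild-type pool in set 1 (filled circles) and set 2 (open squares) for the 2 Ndn probe sets above the unspecific level on all 4 arrays, the other 10 fitted member probe sets, the cell type marker lists and the other imprinted genes. The median of the 2 Ndn probe sets, at 1.35 and 1.45, lies between the medians of the fibroblast and the adipocyte lists. The median of the other members, at 0.09 and 0.31, lies nearer 0.

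The calls above need both the set term and the intensity trend of the fit. With the set term dropped, limma made 0 calls over all probe sets and in the 3 gene lists, although 1280 probe sets had an unadjusted p under 0.05. With the trend dropped it also made 0 calls, and 3486 probe sets had an unadjusted p under 0.05.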

How the data were processed

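The authors deposited 1 table of linear probe set intensities, made with MAS5 (version not given in the sources used here) per the submitters' processing notes. All 4 columns had a mean of 2500 after trimming 2% at each end, so the deposited intensities were used without further scaling. Control probe sets (64 of 45101) were left out. The annotation gave 1 symbol for 34945 probe sets, several for 932 and none for 9160, and RefSeq (GRCm38.p6) matched 34741 of the singly named ones and updated 0 symbols. Values became log2(intensity + 44), 44 being the 10th percentile of all values, and the 22519 probe sets whose mean reached the median over all probe sets were fitted. limma 3.58.1 in R 4.3.3 fitted set and genotype with an intensity trend, adjusted p-values by Benjamini and Hochberg across these, and used a threshold of 0.05. Each probe set has 1 residual degree of freedom, and the prior of eBayes is worth 13.0. The set pairs pools through the series' design text, and arrays of a set deviated together from their genotype's mean (r = 0.605, the same in both sets by construction). Lists used the brightest probe set per gene. With 2 arrays per genotype the smallest exact two-sided permutation p is 0.333, and the number of arrays limits the precision. The code was tested on simulated data.

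The members and lists were chosen with earlier results of these data known. Genes named were all member probe sets, every called gene of the 3 other gene lists, up to 4 further genes per list with the largest changes in the same direction in both sets, and the 5 profiles nearest to Ndn, and other genes were named after their values were seen. Bounds use the mean log2 signal of the brighter group against the unspecific level, the highest of 13 Y-linked probe sets. Alternatives were quantile and cyclic loess normalization, a pseudocount of 1 and one 4 times as large as 44, no filter and the 75th percentile, no set term, no intensity trend, each array left out, each set alone and the median over the probe sets of a gene. Each set alone for the list medians, and Ndn over the probe sets above the unspecific level on all arrays, were added after seeing the data.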

Additional observations from a re-analysis of the deposited data

How the results depend on the processing

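Quantile and cyclic loess normalization, both other pseudocounts and no filter left the counts of calls within 1.5 times for all probe sets (1351 to 1749, against 1645), other imprinted genes (6 to 7, against 6), partners (7 to 9, against 7, of which 1 to 3 were lower), imprint regulators (1) and members between the sets (1). With the filter at the 75th percentile 2 of 14 other imprinted genes were called. Without the replicate block 0 probe sets were called, and 0 other imprinted genes (5 at an unadjusted p under 0.05), 0 partners (5) and 0 regulators (1). Without the intensity trend limma called 0 probe sets, 0 other imprinted genes (7 at an unadjusted p under 0.05), 0 partners (8), 0 regulators (2) and 0 members between the sets. With 1 array left out and no replicate block, limma called between 4 and 27 probe sets (19 without the null pool of set 1) and 0 to 0 genes of each of the 3 lists, with between 0 and 8 genes of a list at an unadjusted p under 0.05. The lone array of a genotype is assumed there to vary like the others. Dnmt1, without the null pool of set 2 and with no replicate block, had a log2 ratio of -0.056, and the other called list genes kept their direction under every alternative run. Of the member probe sets, 10 were at least 2-fold higher in set 1 alone and 11 in set 2 alone, against 7 in both. At least 2-fold lower were 1 in set 1 alone and 3 in set 2 alone, against 0 in both. Some of those higher read within the unspecific level on all arrays. No share over all probe sets was computed for a single set, so nothing is read from these counts. Signal over the unspecific level limits the members: Dlk1 was within it on all arrays and Igf2 near it. The causes of these changes were not tested.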
